A study of Mus musculus with 39 samples.

Results

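Messenger RNA was measured in endothelial cells taken from whole brains of wild-type C57BL/6 mouse pups, the baseline against which a study of endothelial loss of Smad4, Alk1 (gene symbol Acvrl1) or Eng compared its mutants. Described here are the 18 wild-type libraries among the 39 of the series, chosen by genotype label alone. The Smad4 cohort held 5 Smad4f/f pups at postnatal day 7, given tamoxifen at 300 µg on days 1, 2 and 3. The Alk1 cohort held 5 Alk1f/f pups at day 6, given tamoxifen at 100 µg on day 4. The Eng cohort held 5 Engf/f pups at day 7, with tamoxifen as in the Smad4 cohort. The IgG cohort held 3 more Smad4f/f pups at day 7, which by the labels also received IgG at 30 µg on days 2 and 4. All 18 pups therefore carried loxP sites in a gene of the pathway and had received tamoxifen, none carried Cre, and no pup without a floxed allele or without tamoxifen was described. The whole brain was digested with enzymes and the endothelial cells were pulled out with an antibody to PECAM on magnetic beads, so no brain region was sampled by itself and Pecam1 was used to choose the cells.

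Brain endothelium forms the blood-brain barrier. Its cells are sealed by tight junctions, take up nutrients through solute carriers, return lipophilic compounds to the blood through ATP-driven efflux pumps, and keep vesicle traffic low. Wnt7 from neural cells, read through Frizzled receptors with the co-receptors Adgra2 and Reck, drives this programme, while VEGF, TIE, Notch and BMP9 signalling govern growth and arteriovenous identity. Most of these proteins belong to families of close relatives, and the cell type is known for relying on particular members.

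The 4 genes that mark these cells were Cldn5, the main tight junction claudin of brain endothelium, Slc2a1, its glucose transporter, Pecam1, an adhesion molecule of all endothelium, and Abcb1a, an efflux pump. The promoter windows of 2 of them, the transporter and the claudin, are shown because they stand at the head of the contrasts below, from 250 bases before to 50 bases after the gene's start (RefSeq, GRCm38.p6, both on the plus strand, CpG in capitals).
Cldn5, chr16:18776597-18776896: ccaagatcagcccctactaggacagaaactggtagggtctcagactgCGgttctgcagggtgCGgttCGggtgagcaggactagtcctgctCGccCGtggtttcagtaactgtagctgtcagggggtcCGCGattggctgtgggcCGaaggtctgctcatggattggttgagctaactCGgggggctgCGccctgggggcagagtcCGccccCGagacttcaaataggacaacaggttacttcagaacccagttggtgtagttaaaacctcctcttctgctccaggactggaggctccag
Slc2a1, chr4:119108495-119108794: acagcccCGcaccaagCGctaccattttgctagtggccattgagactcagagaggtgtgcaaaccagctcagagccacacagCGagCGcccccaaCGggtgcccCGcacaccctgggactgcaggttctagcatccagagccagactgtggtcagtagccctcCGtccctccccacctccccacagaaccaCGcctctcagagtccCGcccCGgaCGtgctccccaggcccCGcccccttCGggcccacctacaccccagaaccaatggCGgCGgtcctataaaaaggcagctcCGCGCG
The Cldn5 window held 12 CpG and the Slc2a1 window 18, against a median of 7 over 27025 mouse promoter windows of the same length. Of all windows, 61.5% had no more CpG than Cldn5 and 71.6% no more than Slc2a1. The letters TATAAA, searched on both strands, were found in the Slc2a1 window and not in that of Cldn5, and in 14.2% of all windows. These are descriptions of the letters and say nothing on which factors bind there.

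Each library was described on its own scale, since the tables were normalized separately. A share is a gene's value in ppm (parts in 1000000) of the sum of the library's values. A level is the value per kilobase of exon, in ppm of the library's sum of such values, and allows genes of different length to be set side by side. The value sums ran from 31.5M to 42.7M, and the depth inferred from the spacing of low values was 11.6M to 30.3M fragments. Values above 0 were held by 16236 to 17478 genes. By that inference 1 ppm stood for about 11.6 to 30.3 fragments, so shares well under 1 ppm rest on few fragments. Libraries of the Smad4, Alk1 and Eng cohorts are numbered in file order, since their columns name the group but not the pup, and nothing in the labels says whether pups of a cohort were littermates. Spearman's rho across 24946 genes, which are not independent replicates, was 0.978 to 0.988 for 33 pairs of libraries within a cohort and 0.974 to 0.986 for 120 pairs across cohorts. The X-linked Xist marked 8 libraries, 2 per cohort, and the Y-linked Ddx3y the other 10. Libraries 4 and 5 of the Smad4 and Alk1 cohorts and all 5 of the Eng cohort carry a library code in their column names, which the labels do not explain.

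The 4 markers were high in each of the 18 libraries. Cldn5 had 2797, 2909.8, 2887, 3408 and 3624 ppm in the Smad4 cohort, 2878, 2836, 2863, 3539 and 3210.0 ppm in the Alk1 cohort, 3279, 3125, 3239, 3009 and 3063 ppm in the Eng cohort and 3393, 3199.6 and 3315 ppm in the IgG cohort. Slc2a1 had 1584, 1432, 1628, 1710.4 and 1611 ppm in the Smad4 cohort, 1364, 1439.5, 1396, 1427 and 1368 ppm in the Alk1 cohort, 1319, 1539.5, 1539, 1346 and 1514 ppm in the Eng cohort and 2332, 2081 and 1704 ppm in the IgG cohort. The cohorts overlapped in Cldn5, whereas for Slc2a1 the 2 highest libraries were both IgG wild types. The third of that cohort lay within the range of the Smad4 cohort. For Slc2a1 all IgG libraries lay above every library of the Alk1 and Eng cohorts. Pecam1 had 1182, 1295, 1333, 1334 and 1352 ppm in the Smad4 cohort, 1180.3, 1204, 1232, 1294 and 1229 ppm in the Alk1 cohort, 1114, 1190.0, 1238, 1135 and 1239.7 ppm in the Eng cohort and 1228, 1207 and 1256 ppm in the IgG cohort. Abcb1a had 920.3, 936, 968, 995 and 986 ppm in the Smad4 cohort, 954, 829, 918, 956 and 889 ppm in the Alk1 cohort, 872, 897, 938, 854 and 900.0 ppm in the Eng cohort and 989, 976 and 989 ppm in the IgG cohort. Pecam1 overlapped across all cohorts. For Abcb1a the IgG libraries lay within the range of the Smad4 cohort and above every library of the Alk1 and Eng cohorts. The coefficient of variation (SD over mean, n = 18) was 5.37% for Pecam1 and 5.37% for Abcb1a. It was 8.07% for Cldn5 and 16.7% for Slc2a1, with a median of 8.21% over the 7639 genes with at least 20 ppm. Of 18 endothelial identity genes, which include these 4, all stood at a level of 100 or more in every library, and their summed share was 19244 to 21921 ppm.

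**Figure D1:**
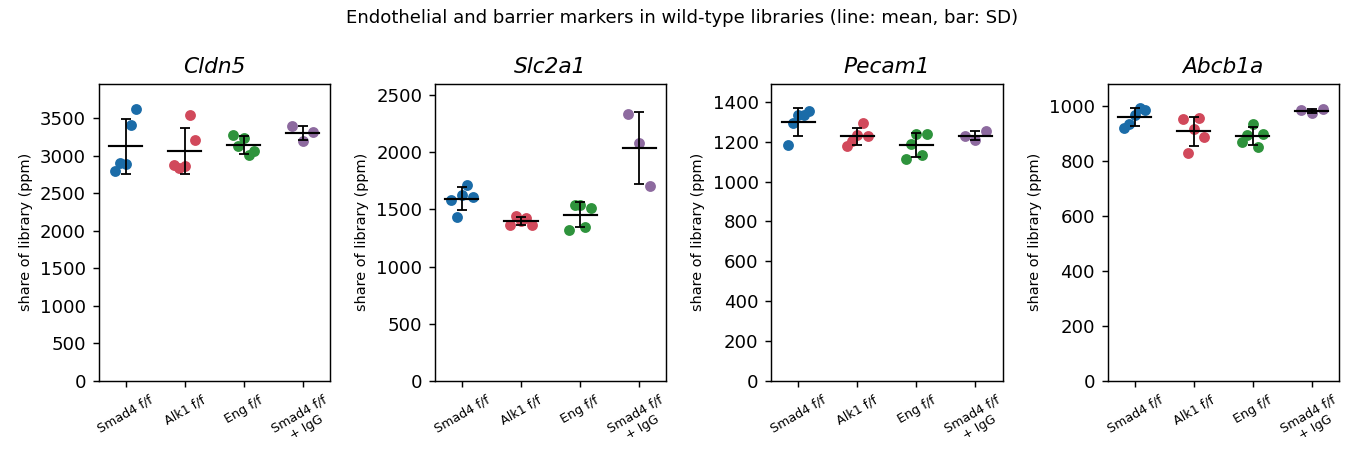
Share of each library (ppm, from 0) of the 4 marker genes in the wild-type libraries of the Smad4, Alk1, Eng and IgG cohorts. Points are libraries, the horizontal line is the cohort mean and the bar its SD (n = 5, 5, 5 and 3). All cohorts overlap in Cldn5 and Pecam1, whereas in Slc2a1 and Abcb1a the IgG points overlap those of the Smad4 cohort only. The 2 highest Slc2a1 points, at 2332 and 2081 ppm, are IgG wild types.

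The transcriptome was shared widely and was topped by barrier, matrix and translation genes. In every one of the 18 libraries 12274 genes reached 1 ppm, and 87 genes stood among the 100 highest levels of all 4 cohorts. The 100 genes of largest share took 18.5 to 19.97% of a library, and the top 10 took 4.55 to 5.31%. Ranked by level, the 15 highest genes were Bsg, Eef1a1, Cldn5, Tmsb4x, Sparc, Hba-a1, Selenop, Spock2, Slc7a5, Ttr, Itm2a, Slc16a1, Actg1, Ptma and Fth1. Bsg, which encodes basigin, the chaperone that brings monocarboxylate transporters to the membrane, led with a level of 9916 to 13109 ppm and ranked between 1 and 2 in every library. Cldn5 stood at 8205 to 10586 ppm and ranked between 2 and 4, above the actins Actg1 (3219.9 to 3982 ppm) and Actb (2801 to 3880.4 ppm). Sparc and Spock2, secreted matrix proteins, had levels of 5026 to 6556 and 3934 to 5242 ppm. Among the top 15, Hba-a1, an alpha globin of red cells, and Ttr, a transthyretin gene typical of choroid plexus, are not endothelial genes, and their ranks ran from 3 to 17 and from 1 to 45. Reads of Hba-a1 could be shared with its near copy Hba-a2, so its level is uncertain. Of the 100 highest genes, 27 encode ribosomal proteins, 4 are processed pseudogenes whose reads may belong to their parent genes, and 9 are solute carriers.

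Solute carriers formed a large and uneven class. Of 391 genes with the prefix Slc, 117 stayed under a level of 1 ppm in every library, 37 reached 100 ppm in every library and 6 reached 1000. Together they held a share of 36097 to 41107 ppm, of which 10 genes, namely Slc7a5, Slc16a1, Slc2a1, Slco1c1, Slc38a5, Slc3a2, Slc1a4, Slc6a6, Slc7a1 and Slc38a2, took 54.4 to 59.2%. The wider choice of members was examined in 65 groups of related genes with 381 members. The same member led in all 18 libraries in 53 groups, by at least 10-fold over the highest other member of the same library in 12 of them and at least 2-fold in 33. Of the members, 106 had a level of 100 ppm or more in every library and 49 stayed under 1 ppm in every library.

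Fuel transporters were used through few members. Slc2a1 had a level of 1587 to 2807 ppm, 70.5 to 142 times that of Slc2a8, an intracellular carrier and the second of 11 glucose transporters by median. Slc2a3, the neuronal glucose transporter, had a level of 0.924 to 2.92 ppm, and Slc2a2, the transporter of liver and pancreatic islets, stayed under 1 ppm. Slc16a1, which carries lactate and ketone bodies, stood at 3248 to 4683 ppm. Slc16a3, the lactate exporter of glycolytic cells, stood at 0.976 to 2.31 ppm. Slc16a5 and Slc16a14 stayed under 1 ppm everywhere. Lactate and glucose carriers were thus each led by a single gene, whose levels did not approach the next member's in any library.

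Amino acid carriers were spread over more systems. Slc7a5, the large neutral amino acid exchanger, stood at 3336 to 4949 ppm and its heavy chain Slc3a2 at 1199 to 1559.9 ppm, with Slc7a8, another partner of that chain, at 263 to 375 ppm. Slc7a1 carried the cationic group with 956 to 1362 ppm, 50.9 to 176 times the level of Slc7a2. In the system N and A group Slc38a5, a glutamine carrier, led with 1299 to 1683 ppm, followed by Slc38a2 with 809 to 1126 ppm and Slc38a3 with 559.9 to 706 ppm. These 3 did not overlap in level, so their order was the same in all 18 libraries. Slc1a4, which carries serine and alanine, stood at 904 to 1504 ppm, and the taurine transporter Slc6a6 at 942 to 1372 ppm. The glial glutamate transporters Slc1a2 and Slc1a3 ranged from 4.98 to 61.2 and from 13.9 to 99.3 ppm. The group of Slc7a11, the cystine and glutamate exchanger, was the lowest, with Slc7a11 at 3.40 to 15.9 ppm and Slc7a10 at 2.79 to 31.7 ppm. Slc7a10 led that group in 14 libraries, but without division by length Slc7a11 was most often the leader.

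Carriers of hormones, drugs and vitamins followed the same pattern. Slco1c1, which carries thyroxine, stood at 1664 to 2424 ppm, ahead of Slco2b1 at 359.9 to 475 ppm and Slco1a4 at 241 to 422 ppm, whereas Slco1a6 and Slco4c1 stayed under 1 ppm. Slc22a8, an organic anion transporter, stood at 738 to 1069 ppm, whereas Slc22a2, Slc22a3 and Slc22a12 of the same family stayed under 1 ppm. Slc29a1, an equilibrative nucleoside transporter, led its group at 149 to 216 ppm. Flvcr2, named for a feline virus and known as a choline transporter, stood at 189 to 306 ppm, ahead of Slc44a1 at 53.3 to 67.0 ppm and Flvcr1 at 11.6 to 16.3 ppm. Vitamin carriers lay close together, with the riboflavin carrier Slc52a3 at 127 to 191 ppm and Slc5a6, which carries biotin and pantothenate, at 87.1 to 169 ppm, and the lead passed to Slc5a6 in 2 of the 18 libraries.

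Abcb1a was the highest of the listed efflux pumps. It (chromosome 5, 8660077 to 8748575, GRCm38) had a level of 654 to 763 ppm and Abcb1b (chromosome 5, 8798147 to 8866315), which lies beside it and encodes a near-identical pump, 0.782 to 2.94 ppm. The ratio of levels was 251 to 911, and Abcb4 and the liver bile salt pump Abcb11 stayed under 1 ppm. Because the coding sequences are alike, reads could have been assigned to the wrong copy, and the low Abcb1b level is uncertain to that extent. Abcg2, the breast cancer resistance protein, stood at 120.0 to 169 ppm and the sterol exporter Abcg1 at 93.7 to 154 ppm, and their order turned in 1 library. Abcc4 had a level of 119.6 to 149 ppm, with Abcc9, a subunit of a potassium channel found in pericytes, at 61.6 to 161 ppm and ahead in 3 libraries. Abcc1 stood at 4.04 to 6.54 ppm and Abcc2 under 1 ppm. Abca1, the cholesterol exporter, had the second highest median level of the ABC transporters, at 478 to 691 ppm. Of 50 genes with the prefix Abc, 15 stayed under 1 ppm in every library.

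**Figure D2:**
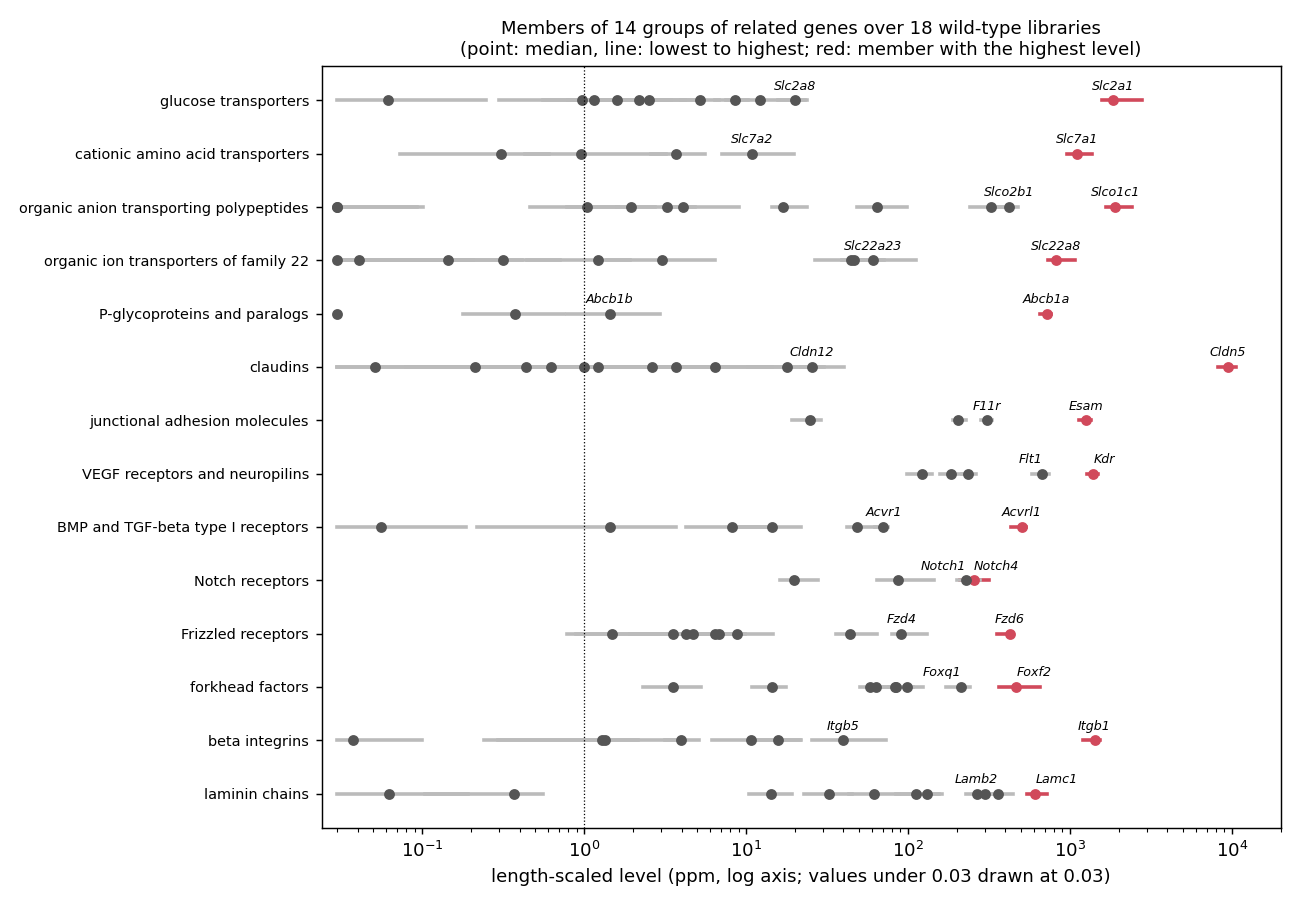
Length-scaled levels (ppm, log axis) of the members of 14 of the 65 groups of related genes. Each point is a gene's median over 18 wild-type libraries and each line runs from its lowest to its highest library, with the highest member in red and the names of the 2 highest given. Abcb1a and Abcb1b are the farthest apart of the pairs named, with a median ratio over the libraries of 506. Cldn5 at a median of 9442 ppm and Cldn12 at 25.6 ppm have a median ratio of 363, and Notch4 and Notch1 overlap.

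Iron and lipid carriers were high. The transferrin receptor Tfrc stood at 1222 to 2453 ppm, while its paralog Tfr2 stayed under 1 ppm, and the iron exporter Slc40a1 stood at 372 to 530.5 ppm. Mfsd2a, which transports lysophosphatidylcholine and keeps vesicle traffic low, stood at 1659 to 2367 ppm, and Plvap, the diaphragm protein of fenestrated and immature vessels, at 106 to 186 ppm. The level of Mfsd2a was 9.04 to 19.9 times that of Plvap, which was thus detected in every library. Among receptors of the LDL family, the apolipoprotein E and reelin receptor Lrp8 led at 381 to 608 ppm and Lrp1 stood at 25.2 to 73.2 ppm. Fatty acid carriers were lower, with Slc27a4 at 40.6 to 61.5 ppm, Fabp5 at 15.3 to 53.1 ppm and Fabp4, typical of capillaries of muscle and fat, under 1 ppm.

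Junctions were built from a small set. Cldn5 (chromosome 16, 18776847 to 18778262) took 98.5 to 99.6% of the summed level of 12 claudins, and its level was 203 to 465 times that of the highest other claudin of the same library. Cldn12, second by median, stood at 21.8 to 30.4 ppm and was second in 15 of 18 libraries, with Cldn11 ahead of it in the other 3. Cldn1, Cldn3 and Cldn11, which have been described at the barrier or in glia, had levels of 2.19 to 14.5, 0.259 to 5.37 and 10.3 to 40.5 ppm. Of their partners, the scaffold Tjp1 stood at 614 to 732 ppm, the paracingulin gene Cgnl1 at 278 to 449 ppm and occludin, Ocln, at 213 to 269 ppm, whereas the epithelial cingulin Cgn was at 0.047 to 1.70 ppm. At tricellular contacts Lsr stood at 667 to 809 ppm and Ildr2 at 239 to 347 ppm, and Ildr1 stayed under 1 ppm. Among junctional adhesion molecules Esam led at 1142 to 1354 ppm, ahead of F11r at 281 to 331 ppm and Jam2 at 191 to 228 ppm. Cdh5, the endothelial cadherin, stood at 1433 to 1718 ppm and N-cadherin, Cdh2, at 125 to 193 ppm, against 1.014 to 6.99 ppm for the epithelial Cdh1. The caveolar genes Cavin1 and Cav1 stood at 746 to 920.0 and 454 to 740.2 ppm and the muscle caveolin Cav3 under 1 ppm.

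Growth factor receptors showed the VEGF and TIE systems at high and even levels. Kdr, the main VEGF receptor, stood at 1268 to 1498 ppm, Flt1, its decoy relative, at 583 to 741 ppm, Nrp1 at 216 to 262 ppm and Flt4, known from lymphatic and sprouting cells, at 157 to 226 ppm. Tie1 stood at 962 to 1169 ppm and Tek, the angiopoietin receptor, at 829 to 940.3 ppm, a ratio of 1.06 to 1.30, so Tie1 led in every library by a small margin. Of the ligands, Angpt2 stood at 39.3 to 77.6 ppm, Angpt1, which is made by pericytes, at 4.19 to 7.38 ppm and Angpt4 under 1 ppm. The apelin receptor Aplnr, a marker of venous and growing endothelium, stood at 1127 to 1714 ppm, its ligand Apln at 453 to 872 ppm and the second ligand Apela at 0 to 1.47 ppm. Pdgfb, which recruits pericytes, stood at 354 to 492 ppm.

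The genes of the BMP9 pathway that the study removed in its mutants had close to the same share in all cohorts. Acvrl1 had a level of 433 to 536 ppm, 6.01 to 7.81 times that of Acvr1, the next type I receptor, and Tgfbr1 stood at 42.3 to 63.4 ppm, Bmpr1a at 9.002 to 21.9 ppm and Acvr1c under 1 ppm. The type II receptors followed the order Tgfbr2 (343 to 408 ppm), Bmpr2 (104 to 141 ppm), Acvr2b (32.8 to 45.4 ppm) and Acvr2a (28.1 to 39.97 ppm), the last pair overlapping. The co-receptor Eng stood at 1421 to 1869.8 ppm and its relative Tgfbr3 at 71.7 to 106 ppm. Smad4, the common SMAD, stood at 184 to 224 ppm, Smad5 at 149 to 198 ppm, Smad1 at 46.1 to 62.9 ppm, Smad3 at 94.3 to 139 ppm and Smad9 at 0.536 to 2.72 ppm. The BMP target genes Id1 and Id3 stood at 477 to 915 and 332 to 589 ppm, Id4 at 1.95 to 6.96 ppm.

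The 3 deleted genes were looked at library by library. As a share, Smad4 had 180.1, 181, 163, 178 and 179 ppm in the Smad4 cohort, 185, 192, 175, 176 and 169 ppm in the Alk1 cohort, 169, 181, 177, 184 and 179 ppm in the Eng cohort and 179.6, 185 and 173 ppm in the IgG cohort. Acvrl1 had 506, 496, 546, 543 and 524 ppm in the Smad4 cohort, 446, 505, 472, 466 and 441 ppm in the Alk1 cohort, 466, 517, 506, 480.4 and 526 ppm in the Eng cohort and 530.2, 538 and 512 ppm in the IgG cohort. Eng had 1415, 1509, 1544, 1581 and 1612 ppm in the Smad4 cohort, 1359.9, 1751, 1474, 1477 and 1537 ppm in the Alk1 cohort, 1482, 1468, 1518, 1516 and 1647 ppm in the Eng cohort and 1655, 1616 and 1549 ppm in the IgG cohort. None of the 3 was set apart in the cohort that carried its floxed allele, and the highest library over the lowest of the 18 was 1.17-fold for Smad4, 1.24-fold for Acvrl1 and 1.29-fold for Eng.

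Notch and Wnt receptors divided into clear and close cases. Notch4 stood at 209.8 to 318 ppm and Notch1 at 201 to 280.2 ppm, and Notch4 led in 17 of 18 libraries, but with the longest transcript in place of the exon union Notch1 led the group. Notch3, a mural cell receptor, stood at 64.8 to 145.9 ppm. Dll4, the ligand of arterial and tip cells, stood at 264 to 356 ppm, Jag2 at 198 to 287 ppm and Jag1 at 137 to 199.9 ppm, and with the longest transcript Jag2 led instead of Dll4. Among 10 Frizzled receptors Fzd6 led at 355 to 445 ppm, and Fzd4, the Norrin receptor, stood at 79.9 to 130.3 ppm. Adgra2 stood at 415 to 512 ppm and Reck at 50.5 to 70.3 ppm, Lrp5 at 77.0 to 98.3 ppm and Lrp6 at 52.2 to 72.5 ppm. Of the nuclear partners of beta-catenin, Tcf7 stood at 263 to 351 ppm and Lef1 at 63.5 to 94.4 ppm. Guidance receptors were nearly exclusive, since Robo4 held 97.9 to 99.2% and Unc5b 98.0 to 99.4% of the summed level of their 4-member groups, and Plxnd1, the semaphorin 3E receptor, stood at 689 to 889 ppm. Of the sphingosine receptors S1pr1 led at 344 to 618 ppm.

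Transcription factors of the endothelial and barrier programme were present at moderate levels. Among the SOX F genes Sox18 stood at 664 to 1081 ppm, Sox7 at 229.9 to 339 ppm and the arterial Sox17 at 145.7 to 226 ppm. The ETS genes Ets1 and Erg stood at 372 to 554 and 305 to 445 ppm and exchanged the lead in 2 libraries, and Etv2, the pioneer factor of the embryo, was listed at 0 in all of them. Foxf2 and Foxq1, both known from brain endothelium, stood at 366 to 657 and 172 to 243 ppm. Zic2 stood at 135 to 242 ppm. The flow-responsive Klf2 and Klf4 stood at 431 to 883 and 236 to 400.2 ppm, and Gata2 at 74.3 to 178 ppm, with Gata1, Gata4 and Gata5 under 1 ppm.

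Basement membrane genes were among the highest. Col4a1 and Col4a2, which form the common type IV collagen, stood at 2122 to 3213 and 2022 to 2815 ppm, and the other 4 chains stood under 20 ppm, the highest being Col4a5 at 6.49 to 16.2 ppm. The laminin chains were led by Lamc1 (543 to 720.3 ppm), Lamb2 (336 to 446 ppm) and Lama4 (264 to 338 ppm), with the epithelial Lamb3 under 1 ppm. Itgb1 held 92.0 to 96.4% of the beta integrin level at 1204 to 1537 ppm, and Itga5, the fibronectin receptor chain, led the alpha chains at 214 to 318 ppm. Of the NO synthases the endothelial Nos3 stood at 654 to 826 ppm and the inducible Nos2 at 76.7 to 110.4 ppm, so Nos2 was detected in every library.

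Zonation lists were present together, as the whole brain was sampled. Capillary genes held the largest summed share, 20818 to 26205 ppm for 12 genes, against 3276 to 4531 ppm for 17 arterial, 3400.2 to 4223 ppm for 12 venous, 10119 to 13783 ppm for 16 tip cell and 1028 to 1602 ppm for 20 cell cycle genes, and lists of different genes are not comparable in size. All 20 cell cycle genes were detected in every library, with Mki67, a proliferation marker, at a level of 67.5 to 133 ppm. The summed share of the arterial list was 3987 to 4531 ppm in the Smad4 and 4051 to 4348 ppm in the IgG cohort, above 3276 to 3610.1 ppm in the Alk1 and 3364 to 3731 ppm in the Eng cohort. The venous sum was 3951 to 4223 ppm in the Eng cohort, against 3413 to 4001 ppm in the Smad4, 3561 to 4012 ppm in the Alk1 and 3400.2 to 3829 ppm in the IgG cohort. Of these ranges only those of the Eng and IgG cohorts did not overlap. Tip cell genes summed to 11736 to 13783 ppm in the Alk1 cohort and 12398 to 12680.2 ppm in the IgG cohort, above 10119 to 11096 ppm in the Smad4 and 10567 to 11394 ppm in the Eng cohort. Of 14 members with at least 5 ppm, only Apln lay above all others in the Alk1 and only Igfbp3 in the IgG cohort. The median over members of cohort median over that of the others was 1.14 and 1.06 there, against 0.995 and 1.002 over all genes compared. The Alk1 cohort differs in day and tamoxifen, the IgG cohort in antibody, and every cohort has its own table, so these cannot be told apart.

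Markers of other cells were present in every library and differed between libraries more than the endothelial genes did. The 10 lists hold 92 genes, whose summed share was 5667 to 11944 ppm, with a median of 7575 ppm. In these bulk samples fewer cells of a type and less RNA per cell cannot be told apart. Pericyte markers summed to 1841 to 3563 ppm, with all 12 detected above 0 in every library and Rgs5 at a level of 919 to 1831 ppm. Smooth muscle markers summed to 516 to 715 ppm, and the defining Acta2 and Myh11 stood at 34.1 to 70.4 and 6.08 to 13.6 ppm while Cnn1 stayed under 1 ppm. Microglia markers summed to 284 to 1248 ppm, astrocyte markers to 269 to 1119.7 ppm, oligodendrocyte lineage markers to 54.5 to 792 ppm, fibroblast markers to 256 to 497 ppm and neuron markers to 48.1 to 248 ppm. The neuronal vesicle genes Snap25 and Syt1 had levels of 0.313 to 2.79 and 0.617 to 2.69 ppm. Erythroid markers summed to 670.1 to 2028 ppm, platelet and neutrophil markers to 9.60 to 38.7 ppm, and lymphatic markers, of which Flt4 is shared with these cells, to 360.3 to 483 ppm, with the lymphatic factor Prox1 at a level of 0.648 to 2.73 ppm.

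Choroid plexus and ependyma markers summed to 511 to 4641 ppm, nearly all of it Ttr. Ttr had 4491, 1305, 1606, 989.7 and 884 ppm in the Smad4 cohort, 1054, 490.0, 723, 634 and 818 ppm in the Alk1 cohort, 1368, 1199, 994, 1651 and 771 ppm in the Eng cohort and 2709, 1473 and 747 ppm in the IgG cohort. Smad4 wild type 1 stood apart at 4491 ppm, and the same library was the highest of all 18 in the summed astrocyte, oligodendrocyte lineage, neuron and fibroblast markers and in the immediate early genes. In that library the capillary sum was the lowest, at 20818 ppm. The part of other cells in these values was not tested.

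**Figure D3:**
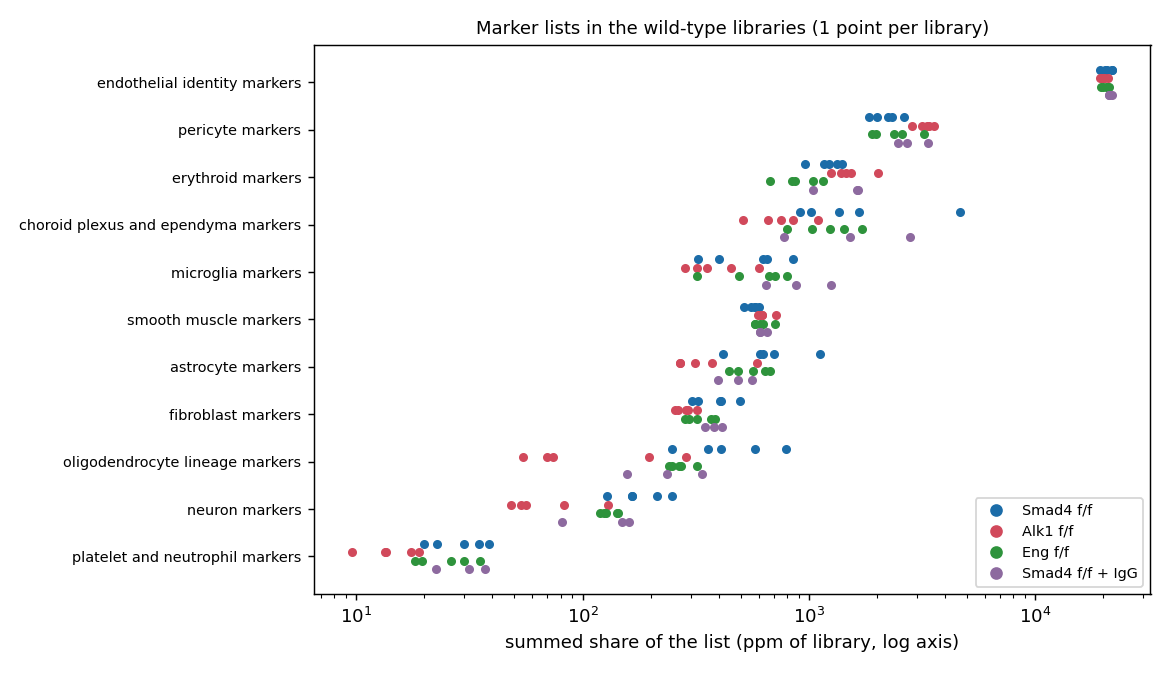
Summed share (ppm of library, log axis) of the endothelial identity list and of 10 marker lists of other cell types, 1 point per wild-type library, coloured by cohort. The endothelial list keeps to 19244 to 21921 ppm, while the oligodendrocyte lineage list spreads over 54.5 to 792 ppm, with 3 Alk1 wild types at its lower end.

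Within the Smad4 and Alk1 cohorts some of these marker sums differed by library code, but not for the same lists or in the same direction. Inferred depth went with the code in both cohorts. It was 25.4M and 20.9M fragments in the coded and 11.8M to 12.8M in the uncoded Smad4 libraries. In the Alk1 cohort it was 19.5M and 30.3M coded and 11.6M to 15.5M uncoded, so code and depth cannot be told apart. In the Alk1 cohort the 2 coded libraries summed to 197 and 287 ppm of oligodendrocyte lineage markers, and the 3 uncoded ones to 54.5, 70.0 and 73.9 ppm. Higher in both coded Alk1 libraries by at least 2-fold in the median, with no overlap, were 172 genes, 1.51% of those compared, and among them were 7 of 10 astrocyte, 7 of 10 oligodendrocyte lineage and 4 of 13 neuron markers, including Aqp4, Olig1 and Dcx. Lower in the coded Alk1 libraries by the same rule were 12 genes (0.105%), and none of these markers was among them. In the Smad4 cohort the 2 coded libraries summed to 324 and 401 ppm of microglia markers and the 3 uncoded ones to 629, 655 and 853 ppm. There 6 of 12 microglia markers, Cx3cr1, P2ry12, Csf1r, C1qa, C1qc and Fcer1g, were lower in the coded libraries, against 0.991% of all genes compared, while 0.175% of all genes were higher. No astrocyte, oligodendrocyte lineage or neuron marker met the rule there in either direction. Oligodendrocyte lineage sums overlapped, at 248 and 577 ppm in coded and 357 to 792 ppm in uncoded Smad4 libraries. Microglia sums went the other way in the Alk1 cohort, at 451 and 599.7 ppm coded and 284 to 354 ppm uncoded.

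Differences between cohorts were few at the size looked for. A gene was counted when all libraries of a cohort lay above, or all below, every library of the other 3 cohorts, and the cohort's median share was at least 2-fold from the nearest other median. Of 11404 genes with a cohort median of at least 5 ppm somewhere, 33 met this, and 909 met it without the fold. The count rose to 145 without Alk1 wild type 5 and to 59 without IgG wild type 3, so more genes met the rule without either library. No gene met it for the Smad4 cohort, which is 0% of the genes compared in either direction. The IgG cohort also carries floxed Smad4, so a difference shared by both cannot meet the rule. Among the coded libraries, which hold no IgG wild types, 31 genes were higher and 22 lower in the Smad4 cohort. There the Alk1 cohort had 8 higher and 26 lower, and the Eng cohort 8 and 5. That subset holds only 2 Smad4 libraries, which are set apart more easily. Of the genes without overlap in the Smad4 cohort over all libraries, Dnah6, a ciliary dynein, was the farthest up. It had 21.8 to 40.8 ppm in the Smad4 cohort and 8.59 to 16.1 ppm in the others, ahead of Stmn2 and Efna5 (1.42- and 1.41-fold between medians). The farthest down were 2610507I01Rik, Rgcc and Capg, and Rgcc had 16.5 to 23.4 ppm in the Smad4 cohort and 23.8 to 47.1 ppm in the others.

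The Alk1 cohort had 2 genes higher (0.0175% of those compared) and 16 lower (0.14%), more than any other cohort. The count of lower genes was 127 without Alk1 wild type 5 and 31 without IgG wild type 1, and that of higher genes 1 without IgG wild type 1 or 3. The non-coding gene 6030443J06Rik had 7.24, 6.56, 6.47, 3.84 and 5.45 ppm in the Alk1 cohort and 1.51 to 2.84 ppm in the others, and Frem1 had 48.4 to 63.1 ppm in the Alk1 cohort and 26.1 to 45.4 ppm in the others. Lower in the Alk1 cohort were Lhfpl3, with 0.415, 0.584, 0.084, 1.86 and 2.22 ppm there and 2.59 to 13.3 ppm in the others, and Gpr17 and Pdgfra, genes of oligodendrocyte precursors. Gpr17 had 3.94, 4.15, 4.58, 8.52 and 11.8 ppm in the Alk1 cohort and 18.8 to 79.5 ppm in the others, and Pdgfra 9.09, 8.004, 9.85, 13.1 and 18.1 ppm in the Alk1 cohort and at least 24.2 ppm in the others. The glutamate receptor gene Grik3 had 0.596, 0.651, 0.431, 1.48 and 2.12 ppm in the Alk1 cohort and 2.24 to 9.43 ppm in the others. The chemokines Ccl3 and Ccl9, Gpnmb, Emilin1, a gene of elastic fibres, Zbtb16, Lmtk3, Celsr1, Retnla, Slc24a3, Scube1, Nsg2 and Cntn1 make up the rest. A gene without overlap over all libraries has none in any subset of them, so only the 2-fold limit could fail in a subset. Of the 2 higher genes, both passed that limit among the uncoded libraries and 1 among the coded. All 16 lower genes passed it among the uncoded libraries of the Smad4, Alk1 and IgG cohorts. Among the coded libraries of the Smad4, Alk1 and Eng cohorts 7 of them did. Summed oligodendrocyte lineage markers, a list that includes Pdgfra, were 54.5 to 287 ppm in the Alk1 cohort. They were 248 to 792, 241 to 321 and 158 to 339 ppm in the Smad4, Eng and IgG cohorts, and their part in the lower genes was not tested.

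**Figure D4:**
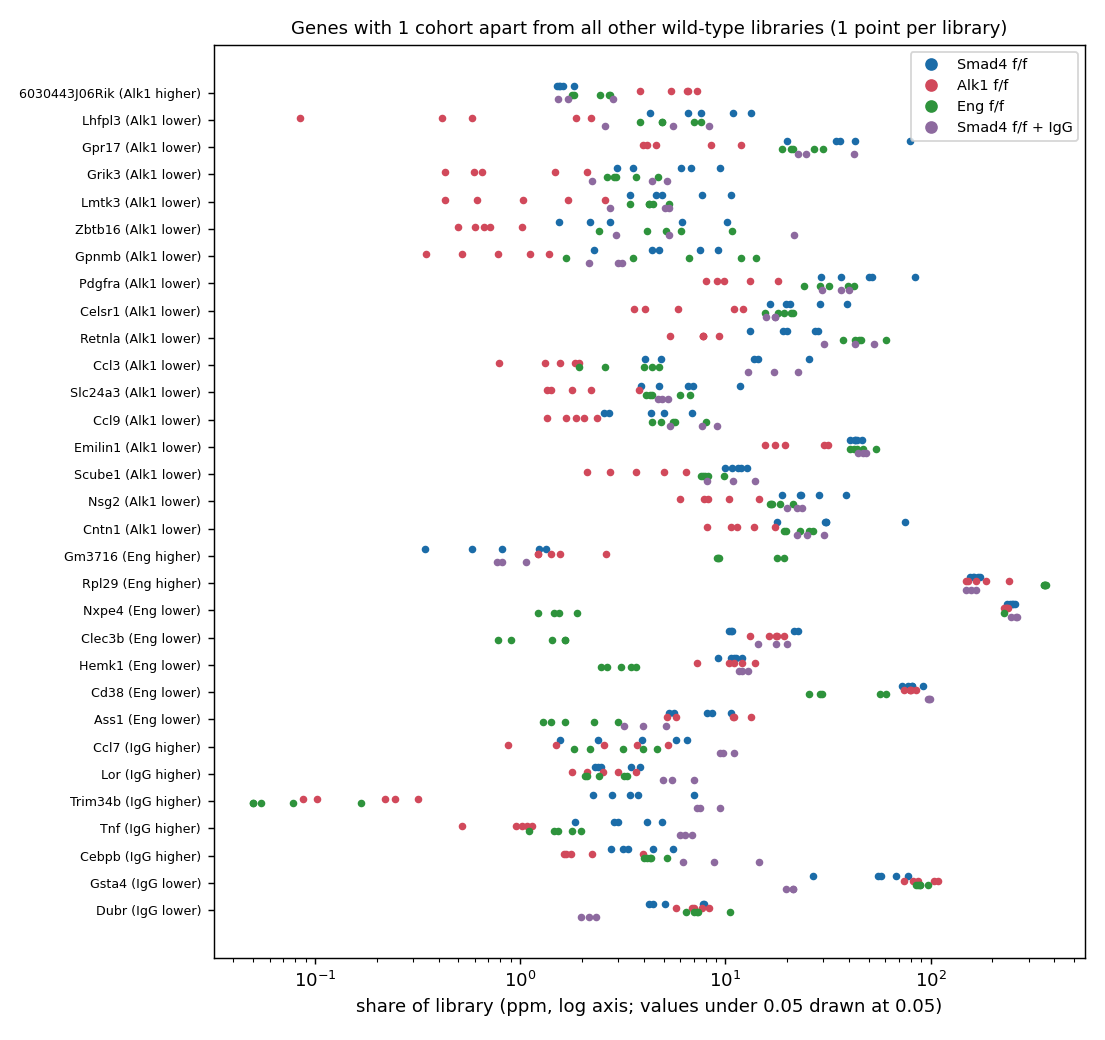
Share of library (ppm, log axis) of 31 of the 33 genes whose libraries in 1 cohort all lay outside those of the other 3 and at least 2-fold from the nearest median, 1 point per wild-type library. The cohort and direction follow each name. Nxpe4 has 4 Eng points under 2 ppm and the fifth at 228 ppm, beside the other cohorts.

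Immediate early genes, known to respond to tissue dissociation, were lower in the Alk1 cohort. Their 17 members summed to 2032, 1836, 1719, 2073 and 1495.1 ppm in the Alk1 cohort, against 5097, 3429, 3509, 3739 and 3224 ppm in the Smad4, 2399, 2599.8, 3092, 2497 and 3035 ppm in the Eng and 4439, 4137 and 3064 ppm in the IgG cohort. All 5 Alk1 sums lay below the other 13. Of the 17, 9 genes (Fos, Jun, Junb, Jund, Atf3, Ier3, Zfp36, Socs3 and Btg2) had every Alk1 library below all others, against 1.1% of all genes compared. Among the uncoded libraries, 3 of the Alk1 and 6 of other cohorts, 15 of the 17 were below, against 12.6% of all genes compared, and among the coded libraries, 2 and 7, 13 were, against 8.06%. Fos had 244, 204, 192, 240.1 and 160.2 ppm in the Alk1 cohort, against 688, 459, 453, 552 and 441 ppm in the Smad4, 294, 304, 409, 332 and 469 ppm in the Eng and 555, 545 and 346 ppm in the IgG cohort. The median over the 17 genes of the Alk1 median over the median of the other cohorts was 0.524, against 0.995 over all genes compared, and none of the 17 was past the 2-fold rule. The day of collection and the tamoxifen scheme differ in the same cohort and cannot be told apart from it.

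**Figure D5:**
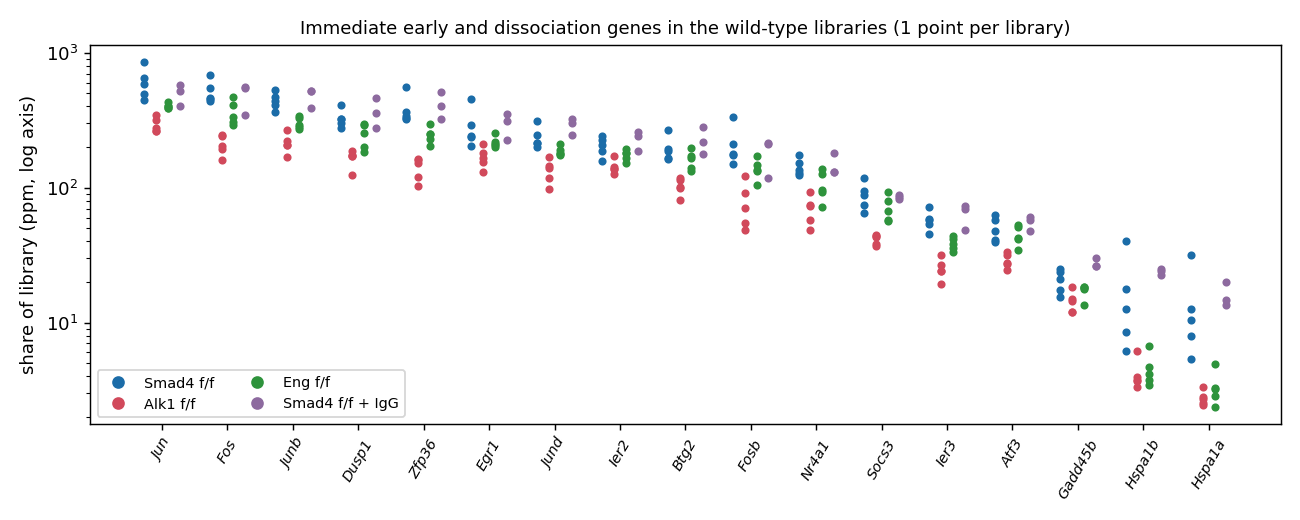
Share of library (ppm, log axis) of the 17 immediate early and dissociation genes, 1 point per wild-type library, coloured by cohort and ordered by median share. For Fos the Alk1 points lie between 160.2 and 244 ppm, below every other point of that gene.

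The Eng cohort had 2 genes higher (0.0175%) and 5 lower (0.0438%), and 4 of the 7 lie on chromosome 9. Without Eng wild type 3 the number higher was 4. Nxpe4 (chromosome 9, 48162023 to 48400025) had 1.55, 1.22, 1.46, 1.89 and 228 ppm in the Eng cohort, against 237, 251, 257, 248 and 243 ppm in the Smad4, 235, 238, 229, 234 and 232 ppm in the Alk1 and 259, 247 and 264 ppm in the IgG cohort. The first 4 Eng libraries were near 0 and the fifth was close to the other cohorts, so the gap of 151-fold between medians is that of 4 libraries, and the fifth misses overlap by less than 1 ppm. The 4 low libraries carry the code L210 and the fifth carries L216. The Eng mutants of the same table (Engf/f; Cdh5-CreERT2, a tamoxifen-induced Cre under an endothelial promoter) divide in the same way, with 1.29, 2.51, 2.15, 1.87 and 186 ppm, where the last carries L216. Clec3b, which encodes tetranectin, had 1.66, 0.781, 1.43, 1.66 and 0.901 ppm in the Eng cohort and 10.4 to 22.6 ppm in the others, and 0.76, 1.39, 1.47, 0.486 and 0.97 ppm in the Eng mutants. Hemk1, a glutamine methyltransferase gene, had 3.68, 2.47, 2.65, 3.11 and 3.45 ppm in the Eng cohort and 7.23 to 13.9 ppm in the others, and 4.06, 3.15, 3.54, 3.26 and 2.78 ppm in the Eng mutants. Rpl29, a ribosomal protein gene with processed copies elsewhere whose reads it may share, had 364, 356, 362, 362 and 357 ppm in the Eng cohort and 148 to 242 ppm in the others, and 399, 410.2, 381, 381 and 388 ppm in the Eng mutants. For these 3 genes the L216 libraries lay with the L210 libraries, unlike for Nxpe4. Rpl29 and Hemk1 start at 106429454 and 107327084, within 1 megabase of each other. Nxpe4, at 48162023, and Clec3b, at 123150946, lie far from them and from each other. Over the 166 genes without overlap in the Eng cohort at any fold, 9.04% were on chromosome 9, against 5.76% of the genes compared. Chromosome 9 was not alone in this, since chromosome 11 held 11.4% against 8.20% and chromosome 3 held 7.23% against 4.84%. The non-coding Gm3716 was higher, with 17.8, 9.35, 9.24, 19.3 and 9.10 ppm in the Eng cohort and 0.342 to 2.61 ppm in the others, and Cd38 and Ass1 were lower. Cfi, a complement regulator, was 1.77-fold higher between medians without passing the fold rule.

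The IgG cohort had 6 genes higher (0.0526%) and 2 lower (0.0175%). Without IgG wild type 3 these counts were 28 and 6, and without Smad4 wild type 3 they were 14 and 4. Ccl7 and Tnf, inflammatory mediators, and Cebpb, a factor of acute phase and myeloid genes, were higher, Ccl7 with 11.1, 9.45 and 9.68 ppm in the IgG cohort and 0.868 to 6.51 ppm in the others. Lor had 4.95, 7.05 and 5.51 ppm in the IgG cohort and 1.79 to 3.84 ppm in the others. Gsta4, a glutathione transferase for lipid aldehydes, had 19.8, 21.3 and 21.4 ppm in the IgG cohort, against 26.6, 55.6, 57.3, 67.7 and 77.1 ppm in the Smad4, 86.4, 81.9, 74.3, 109 and 104 ppm in the Alk1 and 88.4, 86.9, 97.1, 88.6 and 84.5 ppm in the Eng cohort. The 3 IgG libraries were lower than all others, and within the Smad4 cohort 1 library, at 26.6 ppm, lay near them. Dubr and Syn2 were the next lowest, at 2.33- and 1.93-fold between medians. Among the uncoded libraries, where again only the 2-fold limit could fail, 2 of the 6 higher genes passed it, Lor among them. Ccl7, Tnf, Cebpb and Trim34b did not, while both lower genes did. Summed microglia markers were 1248, 876 and 645 ppm in the IgG cohort, against 324 to 853 ppm in the Smad4, 284 to 599.7 ppm in the Alk1 and 320.0 to 803 ppm in the Eng cohort. The immediate early sums given above, 3064 to 4439 ppm in the IgG cohort, lay above all of the Alk1 cohort and overlapped those of the Smad4 and Eng cohorts. The part of both lists in the IgG genes was not tested. Trim34b separated the cohorts in another way, with 7.23, 7.47 and 9.39 ppm in the IgG and 3.74, 2.79, 7.00, 3.43 and 2.25 ppm in the Smad4 cohort, against 0.088, 0.318, 0.218, 0.102 and 0.246 ppm in the Alk1 and 0.078, 0.168, 0.043, 0.055 and 0.047 ppm in the Eng cohort. Both cohorts with more than 1 ppm of Trim34b carry floxed Smad4, and its reads could be shared with its near copy Trim34a. With 3 libraries the IgG cohort is set apart more easily, and 1.94% and 2.05% of genes were above or below all others at any fold, against 0.614% and 1.1% in the Alk1 cohort, 0.666% and 0.789% in the Eng cohort and 0.412% and 0.403% in the Smad4 cohort.

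Most genes of the baseline varied little. Of the 7639 genes with at least 20 ppm, 5165 had a coefficient of variation under 10% over the 18 libraries and 66 one over 50%. The 5 steadiest were Man1a2, a mannosidase of the Golgi, Ppp6r3, a phosphatase subunit, Ap2m1, a subunit of the clathrin adaptor, Secisbp2l and Ddx19a, an RNA helicase. Man1a2 ranged from 109 to 119 ppm (coefficient of variation 2.19%), and Ddx19a from 70.1 to 77.2 ppm (2.59%). At the other end, Gvin1, an interferon-induced GTPase gene with near copies that could share its reads, ranged from 0 to 252 ppm within and across cohorts, ahead of the sex-linked genes and of the myelin gene Mbp (9.94 to 407 ppm).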

How the data were processed

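RNA of bead-captured brain endothelial cells was sequenced after TruSeq version 2 library preparation, per the labels' protocols. The authors deposited 1 table per cohort with a normalized signal per gene and library, although the labels speak of raw counts. The build was mm10, per the submitters' processing notes, and no source used here names the aligner, the counter or the way values were normalized. Of 24972 genes, 26 were dropped because their names were dates or occurred more than once, and 3 further columns, which match no sample described, were not used. No mitochondrially encoded genes are in the tables. Exon lengths came from GENCODE M21 for 98.1% of the genes used, and genes with no length held 0.344 to 0.434% of a library and have a share but no level. Shares, levels, ranks and counts were computed with Python 3.11.15, pandas 2.3.3 and numpy 2.4.6. No test between cohorts was run, since each wild-type group is in a table of its own, and the count test the plan would allow needs counts. Within cohorts of 5, Dixon's critical value was used to flag single libraries. Each count of genes set apart is given beside its share among all genes compared. The members, the gene lists and the rules were chosen with earlier results of these data known. Named genes are the 4 markers, the 15 highest by level, 1 to 4 leading and the background members of each group, the 3 farthest up and down per cohort by fold, the 5 steadiest and the 3 deleted genes, and genes named beyond these in counts were chosen after their values were seen. Some items that this rule names are not reported here. Replicates are separate samples by their labels, and spread between them may be biological or technical.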

Additional observations from a re-analysis of the deposited data

Results flagged for a closer look

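Within each cohort of 5, the highest or lowest library of a named gene's share or of a list's summed share was set against Dixon's critical value of 0.71 for 5 samples, where the cohort reached 1 ppm. Of 707 such groups 38 had a library this far from the other 4, and chance gives about 1 in 20, which is close to this number. The groups are not independent, since Ttr is part of the choroid plexus sum and Zfp36 and Btg2 of the immediate early sum. The IgG cohort, with 3 libraries, was not looked at. All values are shares in ppm, first in the library that stood apart and then the range of the other 4 libraries of its cohort.

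In Smad4 wild type 1, Btg2 stood at 266 ppm against 162 to 192 ppm and Cgn stood at 2.47 ppm against 0.535 to 0.921 ppm. Cldn1 stood at 16.9 ppm against 3.56 to 6.69 ppm and Cldn11 stood at 18.2 ppm against 9.09 to 11.4 ppm. Cldn3 stood at 1.63 ppm against 0.077 to 0.449 ppm and Cntn1 stood at 74.8 ppm against 17.8 to 31.1 ppm. Fzd6 stood at 412 ppm against 486 to 505 ppm and Smad9 stood at 3.52 ppm against 1.84 to 2.1999 ppm. Spock2 stood at 5568 ppm against 6338 to 6473 ppm and Ttr stood at 4491 ppm against 884 to 1606 ppm. Zfp36 stood at 557 ppm against 324 to 363 ppm and the summed share of immediate early and dissociation genes stood at 5097 ppm against 3224 to 3739 ppm. The summed share of choroid plexus and ependyma markers stood at 4641 ppm against 915 to 1667 ppm. In Eng wild type 5, Acvr2b stood at 33.1 ppm against 38.0 to 39.5 ppm and Cgnl1 stood at 774 ppm against 513 to 539.5 ppm. Eng stood at 1647 ppm against 1468 to 1518 ppm and Gvin1 stood at 252 ppm against 0 to 55.2 ppm. Nxpe4 stood at 228 ppm against 1.22 to 1.89 ppm and Slc7a1 stood at 3607 ppm against 3099 to 3234 ppm. Smad3 stood at 179 ppm against 123 to 134 ppm and Smad5 stood at 294 ppm against 309.5 to 313 ppm.

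In Alk1 wild type 5, Id4 stood at 3.504 ppm against 1.82 to 2.03 ppm and Slc7a11 stood at 17.2 ppm against 11.1 to 12.8 ppm. Snap25 stood at 2.34 ppm against 0.491 to 0.845 ppm. In Eng wild type 1, 2610507I01Rik stood at 29.9 ppm against 34.3 to 35.8 ppm and Dubr stood at 10.6 ppm against 6.42 to 7.36 ppm. Scube1 stood at 9.85 ppm against 7.57 to 8.21 ppm. In Smad4 wild type 3, Abcb1b stood at 5.62 ppm against 2.38 to 3.05 ppm and Lrp5 stood at 182 ppm against 202 to 206 ppm. Smad4 stood at 163 ppm against 178 to 181 ppm. In Alk1 wild type 2, Cebpb stood at 3.95 ppm against 1.64 to 2.23 ppm and Foxf2 stood at 359 ppm against 250.3 to 279 ppm. The summed share of smooth muscle markers stood at 715 ppm against 595 to 621 ppm. In Eng wild type 4, Cebpb stood at 5.22 ppm against 4.02 to 4.32 ppm and Jag2 stood at 354 ppm against 383 to 394 ppm. In Smad4 wild type 5, 2610507I01Rik stood at 0.617 ppm against 1.11 to 1.26 ppm. In Alk1 wild type 3, Gm3716 stood at 2.61 ppm against 1.22 to 1.56 ppm. In Alk1 wild type 1, Rgs5 stood at 1646 ppm against 1858 to 1927 ppm.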

How the results depend on the processing

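Counts of what the cohorts share moved little, while the count of genes set apart in 1 cohort depended on the rule. Genes reaching the detection limit in all libraries numbered 11461 to 14752 under the limits and scalings tried, genes shared by the 4 top 100 lists 85 to 90, groups with the same leader 50 to 54 and members under the background level 33 to 63, against 12274, 87, 53 and 49. With the longest transcript 3 groups changed leader, and without division by length 11. The 33 genes set apart became 85 at a minimum of 1 ppm, 12 at 20 ppm, 95 at 1.5-fold, 38 with the 100 most abundant genes left out of the library sum and 31 with a median of ratios. Alternatives chosen after seeing the data gave 909 with no fold limit, 426 among the libraries without a code and 100 among those with a code, and these subsets hold fewer libraries and 3 cohorts. Leaving out each library in turn gave 12276 to 12313 detected genes, 85 to 87 shared top genes, 53 to 55 groups with the same leader, 49 to 50 background members, a median share of other cell types of 7519.9 to 7629 ppm, and 30 to 145 genes set apart. The count passed 1.5 times its value only without Alk1 wild type 5 (145) and IgG wild type 3 (59). The causes were not tested. No paired analysis was possible because no cohorts were tested against each other and the columns of 3 cohorts name no pup. Inferred depth limits values near 1 ppm.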
